A study of Macaca mulatta with 5 samples.

Results

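Broad chromatin loops are loops that a loop caller assembled from many neighbouring pixels of a contact map, where a pixel is the crossing of 2 genomic bins. They were taken here as loops merged from 5 or more pixels whose anchor midpoints lay 100 kb to under 1 Mb apart. By this rule 246 of the 5507 loops of the saline map and 766 of the 8425 loops of the morphine map were broad, 1012 of 13932 in all. The maps came from Hi-C, a sequencing method that cuts and religates crosslinked chromatin, so that joined fragments report loci close together in the nucleus. Neurons purified from the cortex of adult male rhesus monkeys (Macaca mulatta), 3 to 4 years old, were used. Of 4 monkeys, 2 received morphine under the skin 3 times a day for 90 days, at doses raised from 3 to 15 mg/kg, and 2 received the same volume of saline on the same schedule. The labels list 3 libraries for morphine and 2 for saline, so that at least 1 morphine monkey was used for more than 1 library.

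A loop in a Hi-C map is a spot of contact that is stronger than its surroundings. Many loops in mammalian cells form where the ring-shaped cohesin complex extrudes DNA until it meets CTCF bound at the anchors, and others join promoters and enhancers. Callers of the HiCCUPS type test every pixel against several local backgrounds and then merge neighbouring pixels that pass into 1 loop, placed at its strongest pixel. The number of merged pixels therefore describes how wide a patch of the map passed the test, and it depends on sequencing depth as well as on the shape of the contact.

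Each list is 1 map pooled over its group, so the spread between libraries or monkeys is not measured and the saline and morphine maps are compared without replicates. The intervals given are 95% intervals, or wider ones for ratios of medians. They cover counting error only, and loops along a chromosome are not independent. Sequencing depth is unknown. Summed over all loops listed, the strongest pixels held 119909 contacts (saline) and 239042 contacts (morphine), sums that grow with the number of loops. No expression values were at hand, so the neuronal label could not be checked against marker genes. The assembly behind the coordinates is unknown, so positions are as deposited, counted from 1, and no anchor was assigned to a gene.

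The values that selected these loops describe their shape. In the saline map broad loops held a median of 5 merged pixels and at most 13, and in the morphine map a median of 6 and at most 24. The deposited cluster radius, read as the reach of the merged pixels around their centre, had a median of 12.7 kb in both maps. With 5 kb anchors the median radius was 10.2 kb in the saline and 11.3 kb in the morphine map, and with 10 kb anchors it was 15.4 and 16.7 kb. The strongest pixel lay off the centre of the merged pixels by a median of 5.31 kb in the saline and 4.44 kb in the morphine map.

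The strongest pixel of a broad loop held a median of 24 contacts (12 to 228) in the saline map; the morphine median was 29 (10 to 635). Loops of 1 pixel with the same range of spans, called single-pixel loops here, held a median of 17 and 22 contacts. The background expected from the ring of pixels around the loop (the donut background) was also higher at broad loops, with medians of 3.87 against 2.52 contacts in the saline map and 5.42 against 4.18 in the morphine map. Enrichment, the observed over the donut-expected contacts, had a median of 6.23 at broad and 6.68 at single-pixel loops of the saline map, and of 5.56 and 5.05 in the morphine map. Within each anchor width the median was lower at broad loops in both maps, so the order of the pooled morphine medians turns with the mix of widths. It was 7.78 against 9.24 with 5 kb and 5.01 against 5.92 with 10 kb anchors in the saline map, and 5.90 against 8.42 and 4.26 against 4.53 in the morphine map. All of these values belong to the map in which the loops were chosen and are descriptions without a test.

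Loops just inside and just outside the limit of 5 pixels had similar values. In the saline map the 299 loops of 4 pixels had a median of 21 contacts, an enrichment of 5.40 and a radius of 11.2 kb, and the 137 loops of 5 pixels had 24 contacts, an enrichment of 5.92 and a radius of 12.6 kb. In the morphine map the 480 loops of 4 pixels and the 271 loops of 5 pixels both had a median of 24 contacts, with enrichments of 4.77 and 5.37. Every single-pixel loop of either map had FDR values (the q-values against 4 backgrounds in the authors' deposited table) that summed to 0.02 or less. Broad loops met that limit less often than single-pixel loops, in 76.8% of cases in the saline and 78.3% in the morphine map. Loops of 2 to 4 pixels met it least often, in 41.7% and 36.2%. The classes were thus not held to the same limit in the deposited lists.

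**Figure D1:**
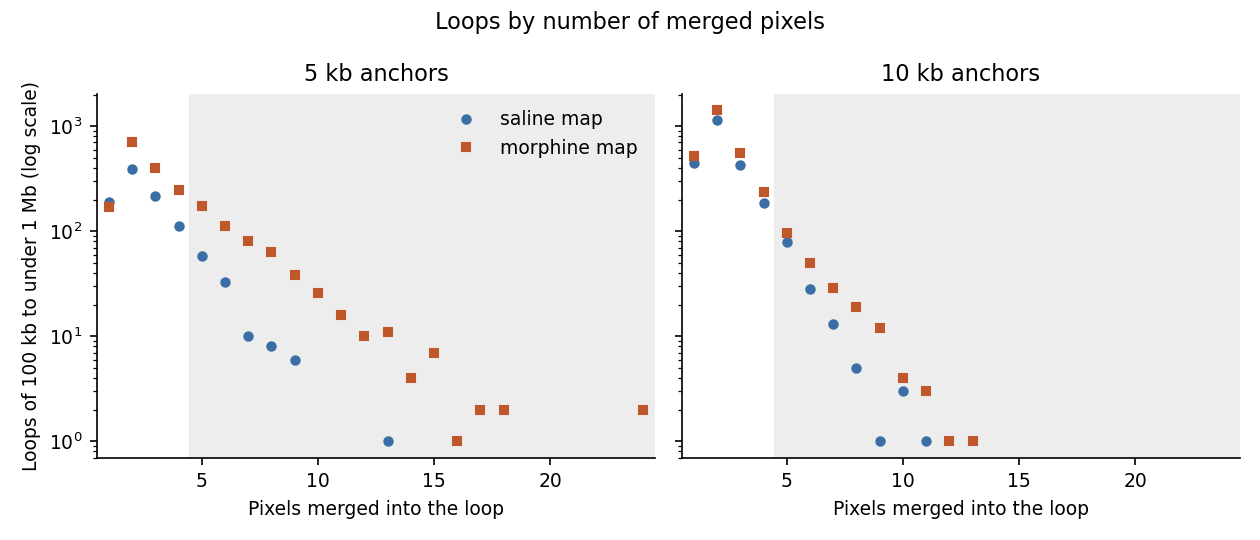
Number of loops spanning 100 kb to under 1 Mb (log scale) by the number of merged pixels, for 5 kb anchors (left) and 10 kb anchors (right); circles are the saline map, squares the morphine map, and the grey area marks broad loops. With 5 kb anchors the morphine points run out to 24 pixels and the saline points to 13; with 10 kb anchors the maps lie closer together.

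Broad loops were 3.11 times as many in the morphine map as in the saline map (766 against 246, interval 2.69 to 3.61). Single-pixel loops of the same span were nearly as many in each map, 696 against 634 (1.10, 0.984 to 1.22), and loops of 2 to 4 pixels lay between, 3572 against 2494 (1.43, 1.36 to 1.51). Broad loops made up 7.29% (6.44 to 8.22) of the 3374 loops of this span in the saline map and 15.2% (14.2 to 16.2) of the 5034 in the morphine map. Over both anchor widths together the ratio grew with the number of pixels, to 4.54 (3.68 to 5.64) at 6 or more and 8.92 (5.89 to 14.1) at 8 or more. At 10 or more it was 18.0 (7.43 to 56.8), where 90 morphine loops stood against 5 saline loops. This growth was not computed within each width. At exactly 10 pixels, 26 morphine and 0 saline loops had 5 kb anchors, and 4 and 3 had 10 kb anchors.

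Anchor width moved with this excess. Among loops with 5 kb anchors, 551 morphine and 116 saline loops were broad (4.75, 3.88 to 5.85), a share of 26.6% against 11.2%. Among loops with 10 kb anchors they were 215 and 130 (1.65, 1.32 to 2.07), a share of 7.26% against 5.55%. Loops with 5 kb anchors were thus 71.9% of the broad loops of the morphine map and 47.2% of those of the saline map. Span made less difference, with ratios of 3.26 (2.64 to 4.04) from 100 to under 200 kb, 2.78 (2.19 to 3.55) from 200 to under 400 kb and 3.56 (2.42 to 5.37) from 400 kb up. In both maps the share of broad loops fell with span, from 8.04% through 7.61% to 5.07% in the saline map and from 18.2% through 14.3% to 11.1% in the morphine map.

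The same loop was next followed in both maps. Of the saline loops of this span, 1412 had a reciprocal nearest partner with the same anchor width in the morphine map. The morphine partner had more pixels in 829 of these pairs, fewer in 275 and as many in 308. Broad loops numbered 160 on the saline side and 440 on the morphine side, with 113 broad on both, a ratio of 2.75 (2.29 to 3.32). The excess was thus also seen at loops that each map had called.

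The local background moved with it. At these pairs the donut-expected contacts of the morphine map were a median of 1.59 times those of the saline map. Where they were over 2 times as high (477 pairs), 219 morphine and 52 saline loops were broad, a ratio of 4.21 (3.10 to 5.81). Where they were 1 to 2 times as high (705 pairs), 193 and 79 were broad (2.44, 1.87 to 3.22). At the 230 pairs whose background was equal or lower in the morphine map, 28 morphine and 29 saline loops were broad (0.966, 0.554 to 1.68), and 73 pairs had more pixels in the morphine map against 98 with fewer. The split by background was chosen after the data were seen and rests on values of the same maps that gave the pixels. In these pooled lists a difference in contacts per map and a difference between the treatments cannot be told apart.

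**Figure D2:**
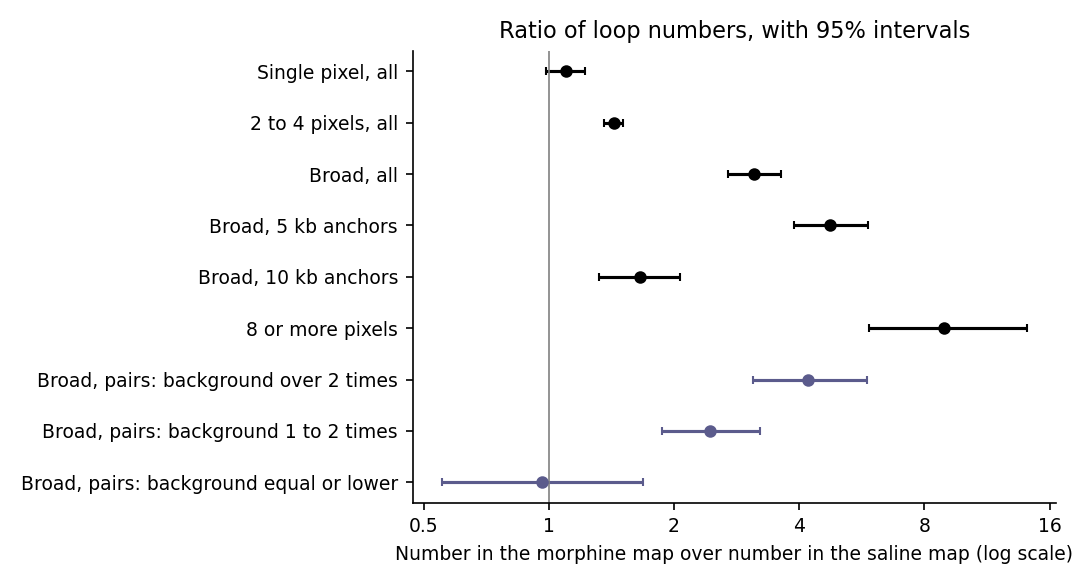
Number of loops in the morphine map over the number in the saline map (log scale) with 95% counting intervals; black points count all loops of 100 kb to under 1 Mb, and blue points count broad loops among the 1412 pairs, split by the morphine over saline ratio of the local background. The ratio is 1.10 for single-pixel loops and 3.11 for broad loops, and falls to 0.966 for pairs with an equal or lower morphine background.

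**Figure D3:**
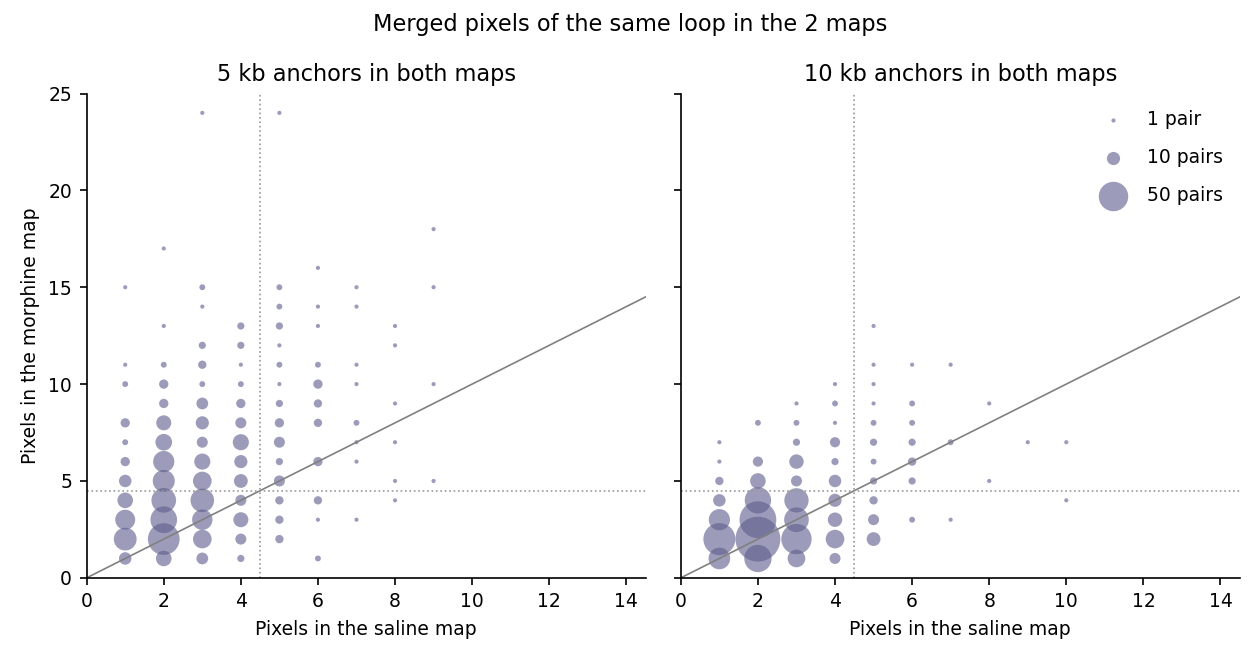
Merged pixels of the same loop in the saline map (horizontal) and the morphine map (vertical) for reciprocal pairs with 5 kb anchors (left) and 10 kb anchors (right); the area of a dot is the number of pairs, the solid line marks equal numbers and the dotted lines the limit for broad loops. Of all 1412 pairs, 829 lie above the line and 275 below it.

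Broad loops were found again in the other map more often than single-pixel loops, a measure that the selection did not use. A loop of the other map with both anchors within 10 kb was counted as a counterpart. In the saline map 210 of 246 broad loops had one, 85.4% (80.3 to 89.5), against 64.2% of all saline loops of this span and 379 of 634 single-pixel loops (59.8%). With anchor width and span matched, the difference between broad and single-pixel loops was 23.1 percentage points (17.2 to 29.0), and broad loops had the higher share on 19 of 21 chromosomes.

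In the morphine map 602 of 766 broad loops had a counterpart, 78.6% (75.5 to 81.4), against 43.1% of all morphine loops of this span and 204 of 696 single-pixel loops (29.3%). The matched difference was 36.9 points (31.5 to 42.4), with the higher share on 21 of 21 chromosomes. For loops with at least 20 contacts in the strongest pixel the saline difference was 24.1 points (15.9 to 32.4). The morphine difference was then 39.97 points (33.1 to 46.8). For loops whose FDR values summed to 0.02 or less the differences were 24.7 points (18.5 to 30.9) and 41.9 points (36.2 to 47.6). When the anchors themselves had to overlap, with no extension, the differences shrank to 8.04 points (0.625 to 15.5) and 16.1 points (10.7 to 21.5), and the saline difference was positive on only 12 of 21 chromosomes.

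In the morphine map the share with a counterpart rose with the number of pixels, from 29.3% at 1 pixel and 30.0% at 2 through 45.5%, 60.0% and 66.8% at 3, 4 and 5 to 83.5% at 6 to 7 and 87.0% at 8 or more. The saline shares were 59.8%, 56.0%, 73.6%, 78.6%, 88.3% and 84.5% over the same classes. At 8 or more pixels the saline share was 72.0% (50.6 to 87.9), from 18 of 25 loops, and the matched difference from single-pixel loops was then 6.54 points with an interval that held 0 (-9.89 to 23.0).

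**Figure D4:**
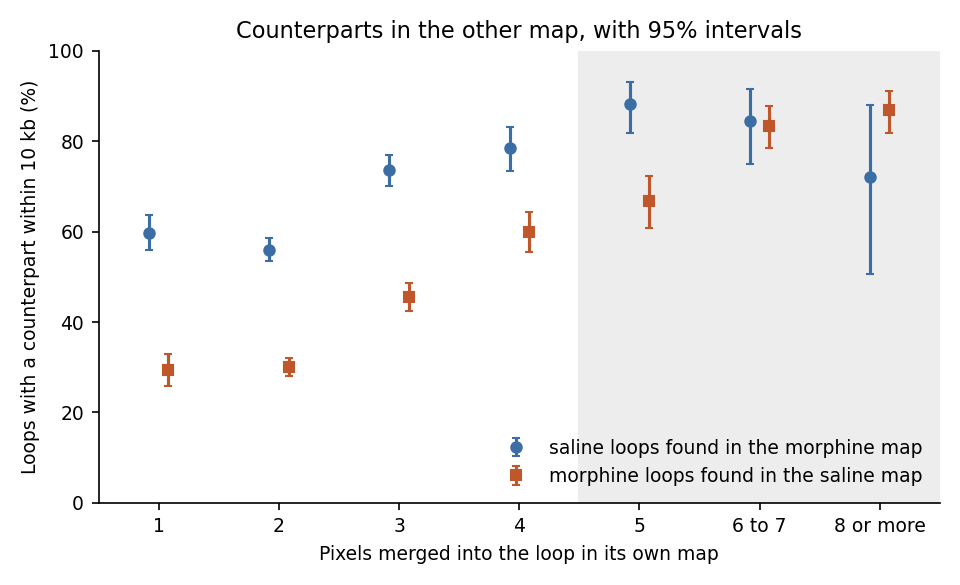
Share of loops with a counterpart in the other map (percent, with 95% Clopper-Pearson intervals) by the number of pixels merged in their own map; circles are saline loops looked up in the morphine map, squares morphine loops looked up in the saline map, and the grey area marks broad loops. Morphine loops go from 29.3% at 1 pixel to 87.0% at 8 or more.

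Most counterparts of morphine broad loops had fewer pixels in the saline map. Of the 602 morphine broad loops with a reciprocal counterpart, 132 (21.9%, 18.7 to 25.4) were broad in the saline map, 419 (69.6%) had 2 to 4 pixels there and 51 (8.47%) had 1 pixel. The saline counterpart had fewer pixels in 564 of the 602 pairs (93.7%). From the saline side, 134 of 209 broad loops (64.1%, 57.2 to 70.6) were broad in the morphine map, 94 had more pixels there, 87 had fewer and 28 had as many. Single-pixel loops of the saline map had a broad counterpart in 13.6% of 376 cases, and those of the morphine map in 2.46% of 203. In all, 131 pairs were broad and within the span range in both maps, 53.3% of the saline and 17.1% of the morphine broad loops. Every member was picked for a high pixel number in 1 map, so a lower number in the other map is partly set by that choice. Anchor width was the same in both maps in 441 of the 602 morphine and 160 of the 209 saline pairs. In the rest, pixels of 5 kb were set against pixels of 10 kb, so pixel numbers there do not compare loop width.

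Counterparts of broad loops were about as enriched as those of single-pixel loops. Read in the morphine map, the 209 counterparts of saline broad loops had a median enrichment of 5.80 (quartiles 4.31 and 8.25) and the 376 counterparts of saline single-pixel loops 5.50 (4.05 and 7.70), a ratio of medians of 1.06 (0.935 to 1.20). Read in the saline map, the 602 counterparts of morphine broad loops had 6.41 (4.78 and 8.83) and the 203 counterparts of morphine single-pixel loops 6.06 (4.44 and 8.07), a ratio of 1.06 (0.922 to 1.19). Both intervals held 1. Against the counterparts of loops of 2 to 4 pixels the ratios were 1.12 (1.03 to 1.24) for saline and 1.15 (1.05 to 1.24) for morphine broad loops. Those intervals lay above 1. These values cover only loops that the other map called as well.

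The place of the strongest pixel was next compared between the maps. Where the anchors had the same width in both maps, it was the very same pixel in 60.0% of 160 saline broad loops and 63.6% of 228 saline single-pixel loops. Starting from the morphine map, it was the same pixel in 52.4% (47.6 to 57.1) of 441 broad and 71.5% (63.0 to 79.1) of 130 single-pixel loops. In loops of 2 to 4 pixels the shares were 48.6% of 1024 in the saline and 49.1% of 845 in the morphine map. Morphine broad loops thus lay nearer to loops of 2 to 4 pixels than to single-pixel loops. With 5 kb anchors the morphine shares were 49.2% (43.7 to 54.8) of broad, 74.3% (56.7 to 87.5) of single-pixel and 49.2% of all such loops. With 10 kb anchors they were 61.8% (52.1 to 70.9), 70.5% (60.3 to 79.4) and 55.0%, where the broad and single-pixel intervals overlapped. The strongest pixel lay at most 1 pixel away in 96.2% of broad and 96.1% of single-pixel saline loops. In the morphine map these shares were 92.1% and 99.2%. Pairs with 10 kb anchors could lie at most 1 pixel apart by the counterpart rule, so only pairs with 5 kb anchors could miss this limit. Pairs with 5 kb anchors made up 331 of the 441 broad and 35 of the 130 single-pixel morphine pairs. These shares are therefore not read as a difference between the classes.

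The loops with the most pixels show the range. The 2 morphine loops with the most pixels had 24 each. The first joined 20770001-20775000 to 20990001-20995000 on chromosome 13, with 188 contacts in its strongest pixel against 3.10 expected, an enrichment of 60.6 (52.3 to 69.9). The saline map had the same strongest pixel with 3 merged pixels, 57 contacts against 0.774 expected and an enrichment of 73.7. Its enrichment was thus no lower in the saline map, where it was not broad. The second, also on chromosome 13, joined 103305001-103310000 to 103620001-103625000, with 105 contacts against 6.85 expected in the morphine map and 34 against 1.40 with 5 pixels in the saline map.

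The next morphine loop joined 5150001-5155000 to 5535001-5540000 on chromosome 10, with 18 pixels and 86 contacts against 6.39 expected, and was broad in the saline map too, with 9 pixels and 20 contacts against 1.88. A loop of 18 pixels between 40790001-40795000 and 41130001-41135000 on chromosome 16 held 30 contacts against 2.53, and the saline map had it with 10 kb anchors, 2 pixels and 21 contacts against 1.80. The fifth, between 117100001-117105000 and 117640001-117645000 on chromosome 12, had 17 pixels and 37 contacts against 3.35 and no saline counterpart. The nearest saline loop differed by 1252.5 kb at the anchor farther off.

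Saline loops reached fewer pixels. That with the most, between 15205001-15210000 and 15305001-15310000 on chromosome 19, had 13 pixels. It held only 30 contacts against 11.6 expected, an enrichment of 2.59 (1.75 to 3.69). The nearest morphine loop differed by 100 kb at the anchor farther off. A loop of 11 pixels between 131840001-131850000 and 131940001-131950000 on chromosome 7 held 51 contacts against 20.3, and its morphine counterpart had 5 kb anchors and 6 pixels. The other 3 had 10 pixels each and 10 kb anchors. That on chromosome 12 (35460001-35470000 to 35810001-35820000) was the most enriched of the 5, with 54 contacts against 4.24 (12.7, 9.57 to 16.6), and had 7 pixels in the morphine map. That on chromosome 1 (29870001-29880000 to 29980001-29990000) had 7 pixels with 5 kb anchors in the morphine map. That on chromosome 5 (53200001-53210000 to 53540001-53550000) had 4 pixels with 10 kb anchors there.

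Among loops broad in both maps, those with the highest pixel number on the lower side were led by a loop on chromosome 6 between 175445001-175450000 and 175555001-175560000. It had 9 pixels and 33 contacts against 1.54 expected in the saline map, and 15 pixels and 48 contacts against 2.86 in the morphine map. The chromosome 10 loop at 5150001 came next. A loop on chromosome 3 (55245001-55250000 to 55695001-55700000) had 9 and 10 pixels, with 17 contacts against 0.751 in the saline and 50 against 1.89 in the morphine map. The loop on chromosome 9 between 5315001-5320000 and 5490001-5495000 was the most alike of the 5, with 8 and 9 pixels, 36 contacts in both maps and 3.50 and 4.12 expected. The last, on chromosome 10 (54360001-54370000 to 54630001-54640000), had 8 and 9 pixels with 33 and 86 contacts. Pixels were more numerous in the morphine map at all 5, and the background was higher there at all 5.

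Some broad loops had no partner even with 20 kb allowed at each anchor, 16 of 246 saline and 113 of 766 morphine loops. This was less common than over all loops of this span, where 1027 of 3374 saline and 2668 of 5034 morphine loops had none. The 16 saline loops lay on 12 chromosomes, and 8 of them had a morphine loop within 50 kb. The 113 morphine loops lay on 20 chromosomes, 51 had 5 kb anchors, and 15 had a saline loop within 50 kb. Counts within 50 kb were not made for other classes, and the saline list held fewer loops (5507 against 8425). They are therefore not read as a trait of broad loops. The 113 morphine loops had a median enrichment of 4.04 against 5.56 for all morphine broad loops, and in the saline map it was 3.91 against 6.23. After the chromosome 19 loop above, the saline loops without a partner that had the most pixels lay on chromosomes 10 and 12. They joined 10500001-10510000 to 10780001-10790000 (8 pixels, 40 contacts against 11.3) and 79190001-79200000 to 79320001-79330000 (7 pixels, 37 against 6.01). After the morphine loop of 17 pixels on chromosome 12, the morphine loops without a partner that had the most pixels lay on chromosomes 10 and 13. They joined 10475001-10480000 to 10785001-10790000 (13 pixels, 35 contacts against 6.13) and 20650001-20660000 to 20990001-21000000 (12 pixels, 33 against 2.98). The 2 loops of chromosome 10 differed by 27.5 kb at the anchor farther off. The loop of chromosome 13 shared its right-hand anchor with the loop of 24 pixels described above, and its highest FDR value in the authors' deposited table was 0.223.

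Broad loops were rare in the authors' lists of differential loops, whose rule is unknown. In the saline map 1 of 246 (0.407%, 0.0103 to 2.24) was listed, against 2.82% of all saline loops of this span and 18 of 634 single-pixel loops (2.84%). Of the morphine broad loops 9 of 766 (1.17%) were listed, against 5.92% of all morphine loops of this span and 41 of 696 single-pixel loops (5.89%). The matched differences were -2.04 points (-3.53 to -0.552) and -4.19 points (-6.22 to -2.15). This largely restates the counterpart result, since all 10 listed broad loops were among the 129 without a partner within 20 kb, and no loop of this span with such a partner was listed in either map. Among loops without a partner, 7.96% (3.71 to 14.6) of 113 morphine broad and 8.74% (6.35 to 11.7) of 469 single-pixel loops were listed, and in the saline map 1 of 16 broad and 7.76% of 232 single-pixel loops. The saline one, named after its values were seen, joined 12890001-12900000 to 13240001-13250000 on chromosome X with 5 pixels and 16 contacts against 1.78 expected.

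Whether broad loops shared their anchors with other loops depended on how sharing was counted. In the saline map 33.7% of broad loops had an anchor that another loop also used, against 41.7% of all saline loops of this span and 44.3% of single-pixel loops, a matched difference of -9.28 points (-16.4 to -2.11). When anchors within 10 kb of each other counted as shared, that difference turned to 1.12 points (-6.26 to 8.50). In the morphine map 52.7% of broad loops shared an anchor, against 53.2% of all morphine loops of this span and 54.6% of single-pixel loops (-0.573 points, -6.41 to 5.26). That value hid opposite directions by anchor width, 9.46 points (0.841 to 18.1) with 5 kb and -9.02 points (-17.0 to -1.09) with 10 kb anchors. With at least 20 contacts required it was -14.5 points (-21.7 to -7.37).

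Broad loops that shared an anchor with another broad loop were 4 (1.63%, 0.445 to 4.11) in the saline map. In the morphine map they were 69 (9.01%, 7.08 to 11.3) and formed 33 groups of at most 3. The maps held 246 and 766 broad loops, and the like share was not computed for other classes. Over all loops of this span an anchor was shared with any loop in 41.7% and 53.2%. The 2 shares are therefore not read as a trait of broad loops. The 3 groups of 3 were picked out by size after the data were seen. Each linked neighbouring stretches of a chromosome, and only on chromosome 11 did the anchors overlap at all 3 corners. On chromosome 10 loops of 12 and 8 pixels joined 64660001-64665000 to 64780001-64785000 and to 64870001-64875000. A loop of 6 pixels joined 64770001-64775000 to 64870001-64875000, so that the middle anchors did not overlap. The saline map had these loops with 3, 2 and 4 pixels, that of 2 pixels with 10 kb anchors. On chromosome 11, loops of 13, 7 and 6 pixels joined 1725001-1730000, 1880001-1885000 and 2035001-2040000, the last pair with anchors of 10 kb, and the saline map had them with 4, 2 and 4 pixels. On chromosome 16, loops of 6, 6 and 5 pixels joined 21200001-21210000 to 21590001-21600000, 21205001-21210000 to 21320001-21325000 and 21340001-21345000 to 21595001-21600000, so that the middle anchors did not overlap. The saline map had them with 2, 4 and 4 pixels, all with 10 kb anchors. None of these 9 morphine loops was broad in the saline map, yet all 9 were called there. The pairs of saline broad loops with a shared anchor lay on chromosome 1 (41910001-41920000 and 42310001-42320000, both joined to 42470001-42480000) and on chromosome 8 (83845001-83850000 to 84240001-84245000, and 84240001-84250000 to 84620001-84630000).

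Loop anchors were then placed against topologically associating domains, stretches of the genome that contact themselves more than their flanks. Both anchors lay within 40 kb of a domain boundary in 0 of 246 saline broad loops, which allows a share of up to 1.22%, in 0 of 634 single-pixel loops and in 0% of all saline loops of this span. The morphine map had 2 such loops among 766 broad and 2 among 696 single-pixel loops, against 0.258% of all morphine loops of this span. Nearness to any boundary was counted, so these loops need not join the ends of 1 domain. These morphine broad loops joined 17805001-17810000 to 17910001-17915000 on chromosome 10 and 14695001-14700000 to 14795001-14800000 on chromosome 19. At least 1 anchor lay at a boundary in 8.54% of saline broad and 12.1% of saline single-pixel loops, against 9.69% of all saline loops of this span (broad minus single -3.43 points, -7.72 to 0.859), and in 13.2% and 11.8% of the morphine loops, against 11.5% of all (broad minus single 0.838 points, -3.02 to 4.70). Broad loops lay inside 1 domain about as often as all loops of this span did, in 89.4% of cases against 88.3% in the saline and in 84.7% against 84.1% in the morphine map. For single-pixel loops the shares were 87.7% and 80.6%. The matched differences from single-pixel loops were 0.708 points (-4.01 to 5.43) and 4.09 points (-0.115 to 8.30). For the morphine map the interval lay above 0 under 4 of 9 alternatives, among them 10 kb anchors alone (6.95, 1.41 to 12.5) and the domains of the saline map (5.17, 1.10 to 9.25), and against loops of 2 to 4 pixels the difference was -0.311 (-3.17 to 2.55).

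By chromosome, broad loops were most frequent on chromosome 10 in both maps, with a share of 14.4% (9.60 to 20.3) in the saline and of 25.1% (20.8 to 29.8) in the morphine map. Chromosomes 19 (21.6%) and 16 (21.5%) followed in the morphine map, with chromosome 18 at 17.5% and chromosome 20 at 16.9%. The lowest saline shares were on chromosomes 17 (1.43%) and 5 (2.72%), and the lowest morphine shares on chromosomes X (3.57%), 17 (6.10%) and 5 (6.20%). Chromosome X was the only chromosome where the morphine share was below the saline share (8.51%), with wide intervals for both.

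The ratio of broad loop numbers was highest on chromosome 19, with 56 morphine and 8 saline loops (7.00, 3.32 to 17.0), followed by chromosome 20 (40 against 7, 5.71, 2.53 to 15.1) and chromosome 15 (38 against 7, 5.43, 2.39 to 14.4). Across the 21 chromosomes this ratio rose with the median morphine over saline ratio of the donut background at paired loops (Pearson's r 0.66, Spearman's rho 0.54, and r 0.61 without chromosomes 19 and 10). The share of broad loops also rose with the chromosome's own median background, with r 0.83 (rho 0.71) in the morphine and r 0.45 (rho 0.42) in the saline map. Without chromosomes 19 and 10 the morphine r was 0.73, and without chromosomes 10 and 20 the saline r was 0.33. These are descriptions, since chromosomes of a map share its libraries and depth. Without chromosomes 10, 16, 19 and 20, which had the highest background ratios, the overall ratio of broad loops was 2.71 (2.29 to 3.22).

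**Figure D5:**
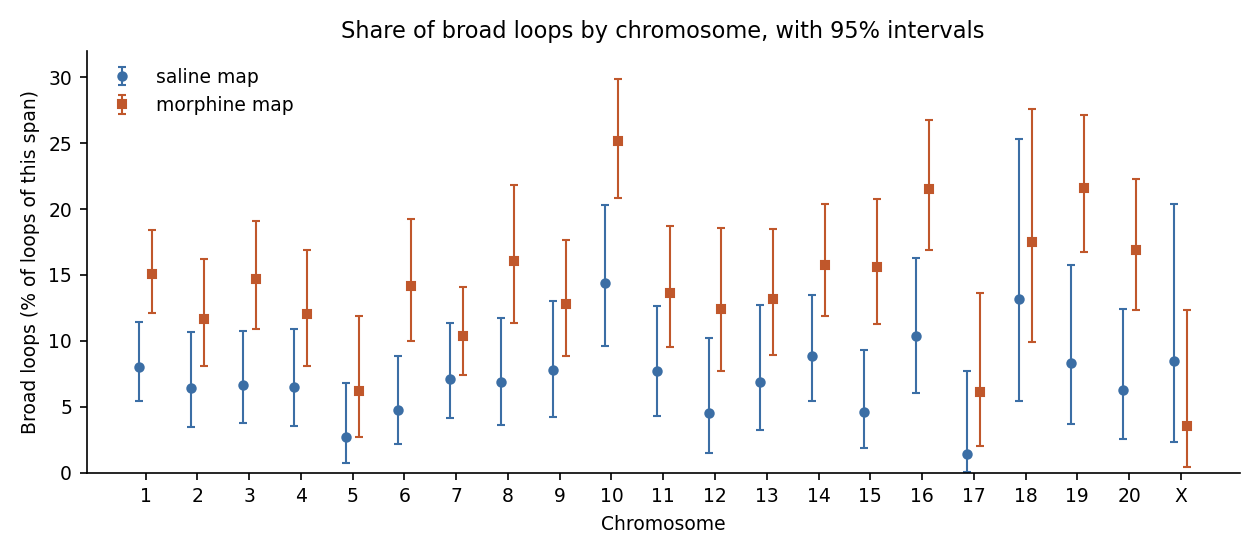
Broad loops as a percentage of all loops of 100 kb to under 1 Mb on each chromosome, with 95% Clopper-Pearson intervals; circles are the saline map and squares the morphine map. Chromosome 10 is highest in both maps, at 14.4% and 25.1%, and the morphine share is the higher one on every chromosome except X.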

How the data were processed

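The authors deposited 1 loop list, 1 differential loop list and 1 domain list per group. Per the file headers the loop lists have the column layout of HiCCUPS; the aligner, the caller's settings and the assembly are not given in the sources used here. A human build (hg19) stands in the submitters' processing notes, although the files hold 20 autosomes and X. The observed contacts that the authors deposited are raw counts in whole numbers; the authors' expected contacts are model values on the same scale; the deposited FDR columns hold q-values; the authors' domain boundary strength is a score without a stated scale and was not used.

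Computed here with Python 3.11.15, pandas 2.3.3, scipy 1.17.1 and networkx 3.6.1: a loop and its counterpart had both anchors in overlap (at least 1 bp) once anchors were extended by 10 kb. Shares have exact Clopper-Pearson intervals, ratios of counts exact conditional binomial intervals, and medians order-statistic intervals. Differences of shares were weighted as Mantel-Haenszel over 6 strata of anchor width (5 or 10 kb) and span (divided at 200 and 400 kb). Matching and intervals were tested on simulated data. The limit for a share of 0 is 3 loops of the total.

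Loops were named by rule: the 5 with the most pixels per map and the 5 broad in both maps with the highest lower pixel number. The 3 with the most pixels per map among those without a partner within 20 kb were also named. The members and these choices were made with earlier results of these data known. No p-value was computed, since libraries were pooled. Sequences and genes were not analysed here.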

Additional observations from a re-analysis of the deposited data

How the results depend on the processing

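Shares are percentages of loops and differences are percentage points, broad minus single-pixel loops. With 4 or more pixels the morphine over saline ratio of broad loops was 2.29. The broad shares were then 16.2% (saline) and 24.8% (morphine), and the share of morphine broad loops with a broad counterpart was 31.8%. With 8 or more pixels the ratio was 8.92, the broad shares 0.741% and 4.43%, the shares with a broad counterpart 38.9% and 3.61%, and in the saline map the counterpart difference was 6.54, the enrichment ratio 1.55 and the shared-anchor difference -18.2. With 5 kb anchors the ratio was 4.75, the broad shares 11.2% and 26.6%, the saline counterpart difference 14.1, the saline share with a broad counterpart 78.4%, and in the morphine map the shared-anchor difference was 9.46 and the difference with both anchors at a boundary 0.278. With 10 kb anchors the ratio was 1.65, the broad shares 5.55% and 7.26%, the saline counterpart difference 29.4, the shares with a broad counterpart 50.5% and 28.7%, and the morphine shared-anchor difference -9.02. With all 4 FDR values at or under 0.01 the broad shares were 10.9% and 24.0%, the saline counterpart difference 30.6 and the shares with a broad counterpart 71.5% and 28.3%. Without chromosomes 10, 16, 19 and 20 the morphine broad share was 13.2% and the saline share with a broad counterpart 56.6%. With no extension the counterpart differences were 8.04 and 16.1 and the morphine share with a broad counterpart 25.9%. Without strata the morphine counterpart difference was 49.3. Against loops of 2 to 4 pixels the morphine difference inside 1 domain was -0.311. With 20 or more contacts the morphine shared-anchor difference was -14.5. Chosen after the data were seen, counting either anchor at a boundary gave -3.43 and 0.838, and pairs with an equal or lower morphine background gave a ratio of 0.966 (0.554 to 1.68), so that no excess was seen there and its direction was not settled. With anchors within 10 kb counted as shared, the saline difference reversed to 1.12.

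The counterpart difference was above 0 under all 12 alternatives in each map (6.54 to 30.6 in the saline, 16.1 to 49.3 in the morphine map), and its interval held 0 in 1 case, saline loops of 8 or more pixels. The difference in the differential lists was below 0 under all 9 alternatives in each map, and its interval held 0 in 1 case, saline loops with 5 kb anchors (-1.81, -3.85 to 0.230). The morphine difference inside 1 domain had an interval above 0 under 4 of 9 alternatives. The causes of these shifts were not tested. No paired analysis was possible because each list pools the libraries of its group, and for the same reason no library could be left out.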

Other observations

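Loops merged from 5 or more pixels also occurred outside the span range of the report. Under 100 kb they were 154 of 1976 saline loops (7.79%, 6.65 to 9.06) and 485 of 3142 morphine loops (15.4%, 14.2 to 16.7), and a counterpart in the other map was found for 86.4% and 77.7% of them. At 1 Mb or more they were 12 of 157 saline loops (7.64%, 4.01 to 13.0) and 30 of 249 morphine loops (12.0%, 8.28 to 16.8), with a counterpart for 91.7% and 76.7%.

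Other loops lay inside 43.5% of saline broad loops and 41.3% of saline single-pixel loops, and inside 52.5% and 52.9% of the morphine loops. Both anchors were used by other loops in 5.28% of broad and 8.68% of single-pixel saline loops, and in 15.3% and 13.4% of the morphine loops. At broad loops the expected contacts along the row and the column of the pixel stood above the donut background, by median factors of 1.23 and 1.22 in the saline and 1.20 and 1.20 in the morphine map. At single-pixel loops these factors were 1.16 and 1.20 in the saline and 1.13 and 1.13 in the morphine map. Enrichment was also compared, as medians, where broad loops and their counterparts had the same anchor width. At saline broad loops the morphine map had 0.890 times the enrichment of the saline map (160 pairs). This ratio was 0.848 over all saline loops of this span (1412 pairs) and 0.739 at saline single-pixel loops (228 pairs). A lower morphine enrichment was thus not particular to broad loops. At morphine broad loops the saline map had 1.16 times the enrichment of the morphine map (441 pairs).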
